A study of Mus musculus with 6 samples.

Results

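The genes described here are Art1, Art3, Art4 and Art5, the ADP-ribosyltransferase genes of the Art family that were expressed in the mouse hearts of this series. They were taken by symbol, 4 of the 35976 gene rows of the deposited count table. They were selected on measured values in part. Art1 was chosen by its CPM difference, as its level separated edited from control hearts strongly in an earlier analysis of these same libraries, and the other 3 were added as its relatives. Their differences between edited and control hearts are therefore a description and carry no test here. The study aimed an adenine base editor at the donor splice site of intron 7 of Camk2d, the main CaMKII gene of the heart, and compared RNA from edited and unedited hearts. The edited group held 3 heart libraries from wild-type (WT) mice given AAV-MYL2-TadA8e-Sauri-U6-Camk2d sgRNA7, an adeno-associated virus in which a MYL2 promoter, active in heart muscle, drives the deaminase TadA8e joined to the Cas9 Sauri, beside a U6-driven guide. The control group held 3 heart libraries from WT mice with no treatment. Virus, editor and edit differ together between the groups and cannot be told apart. The labels used here give no age, sex, dose or interval after injection and do not say whether the replicates came from separate animals, and the spread between libraries may be partly technical.

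ADP-ribosyltransferases of this family resemble bacterial toxins. They take ADP-ribose from NAD and attach a single unit of it to a protein, most often to an arginine at the outer surface of a cell. Art1 is held in the membrane by a GPI (glycosylphosphatidylinositol) lipid anchor and is best known from skeletal and heart muscle, where integrin alpha 7 and the membrane repair protein TRIM72 have been reported as its targets. Art3 and Art4 are also GPI-anchored, lack the residues that arginine transfer requires and have no known enzyme activity of this kind. In humans ART4 carries the Dombrock blood group antigens, and ART3 is known from testis. Art5 lacks the anchor and can be secreted.

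Art1 and Art5 are neighbours on chromosome 7 and are read away from each other, so the region between them lies upstream of both. In the deposited table (build mm10) Art1 lies at chr7:102101706-102111758 on the plus strand, with 1995 exon bases in 6 merged blocks. Art5 lies at chr7:102096879-102100307 on the minus strand, with 1792 exon bases, and its start is 1399 bases from that of Art1. Art3 lies at chr5:92331798-92414628 on the plus strand with 2356 exon bases, and Art4 at chr6:136848451-136857600 on the minus strand with 2384. The 250 bases before the RefSeq start of Art1 and of Art5 (GRCm38.p6, the same assembly as mm10; chr7:102101493-102101742, plus strand, and chr7:102100230-102100479, minus strand) are shown because these starts lie so close while the levels of the genes behaved differently in edited hearts. They run 5′ to 3′ along each gene's own strand, and capitals mark matches, on either strand, to the E-box CANNTG and to TATAAA.
Art1: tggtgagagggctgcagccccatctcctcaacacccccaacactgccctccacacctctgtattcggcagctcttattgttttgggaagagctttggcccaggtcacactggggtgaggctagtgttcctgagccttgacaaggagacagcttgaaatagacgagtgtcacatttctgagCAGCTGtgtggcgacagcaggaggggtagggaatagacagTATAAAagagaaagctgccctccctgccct
Art5: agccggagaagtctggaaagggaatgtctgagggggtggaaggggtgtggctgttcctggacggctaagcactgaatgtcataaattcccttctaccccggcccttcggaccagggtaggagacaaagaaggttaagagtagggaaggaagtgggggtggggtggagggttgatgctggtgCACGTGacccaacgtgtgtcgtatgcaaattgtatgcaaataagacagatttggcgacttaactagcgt
The Art1 window held an E-box, CAGCTG, from position -70 and a TATAAA from -30, counted back from the RefSeq start. The Art5 window held an E-box, CACGTG, from -69 and no TATAAA. No MEF2 consensus was in either window. An E-box was present in 66.2% of the 32851 windows of this length in the RefSeq promoter table, TATAAA in 12.4% and the MEF2 consensus in 2.92%, so an E-box match is common. Both RefSeq starts lie downstream of the starts given above for the counted genes, from which the distance between Art1 and Art5 was taken. Each window therefore ends inside the gene as counted, and the Art1 TATAAA and the Art5 E-box fall in that part. These matches describe the letters only.

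Each library held 17062412 to 23097998 counts. Levels are given as CPM, reads of a gene per 1000000 reads of its library after TMM scaling, and, where genes are compared with each other, as TPM, which corrects for gene length. The targeted gene, Camk2d, was at 138, 130 and 164 CPM in edited hearts 1, 2 and 3, against 226, 220 and 224 CPM in controls 1, 2 and 3. It was thus lower in every edited heart (log2 change -0.63, SE 0.07, adjusted p = 0.000476 by edgeR). The labels name a splice site as the target and give no direction for the total RNA of the gene. Controls 1 and 3 stood apart. The summed CPM of 6 atrial muscle markers was 61.9 and 43.8 in these controls, against 1990 in control 2 and 1270 to 2820 in edited hearts. Results are therefore also given with both of these controls left out, a setting with a single control library. Of these markers Bmp10 lay the other way, at 0 to 0.112 CPM in edited hearts and 0.0522 to 102 CPM in controls. The sums of controls 1 and 3 are below 102, so the high value was in control 2. Control 2 is thus not a full match for the atrial RNA of edited hearts.

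Art1 RNA was lower in edited hearts, and every edited library lay far below every control. Art1 had 385, 308 and 330 reads in edited hearts 1, 2 and 3, against 686, 841 and 812 reads in controls 1, 2 and 3. This was 16.4, 17.4 and 18.4 CPM in the edited hearts, against 41.0, 44.3 and 42.4 CPM in the controls. The groups did not overlap, and the gap between the highest edited and the lowest control library was many times the spread within either group. The mean was 17.4 ± 1.01 CPM in edited hearts and 42.6 ± 1.64 CPM in controls (SD, n = 3 each). The log2 change was -1.29 (SE 0.07), so that edited hearts held 40.8% of the Art1 RNA of controls (37.0% to 45.0% at ±2 SE). Of 14879 tested genes, 31 had a log2 change at or below that of Art1, itself included, and of the 9503 with a mean of at least 10 CPM, 9 did.

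Replicates agreed closely for Art1. The coefficient of variation was 5.77% in edited hearts and 3.85% in controls, where counting reads alone gives 5.42% and 3.58%. The control without the atrial shortfall, control 2, had the highest Art1 level of the 3, and with controls 1 and 3 left out the log2 change was -1.35. With the log2 level of the atrial myosin gene Myl7 as a covariate it was -1.34. Without any single library it stayed between -1.34 and -1.25.

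**Figure D1:**
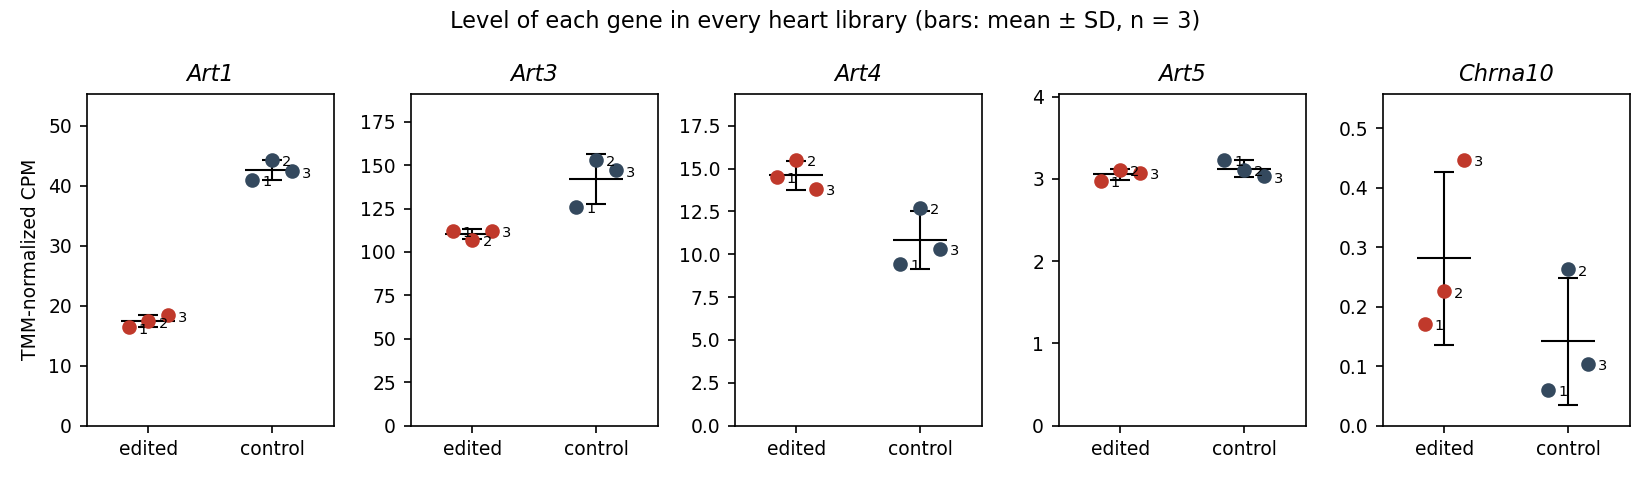
TMM-normalized CPM of the 4 genes and of Chrna10 in each heart library (points, numbered by replicate; bars are the mean and SD, n = 3 each; each panel has its own linear axis from 0). Art1 and Art3 lie lower and Art4 higher in every edited heart, while Art5 and the near-silent Chrna10 overlap between groups.

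Chrna10, a nicotinic receptor subunit gene on the opposite strand, runs into the 3′ end of Art1. The genes share 497 exon bases, which is 24.9% of the exon bases of Art1 and 17.8% of those of Chrna10. The labels do not say whether reads were counted by strand, so reads from the shared stretch cannot be assigned with certainty. Chrna10 had 4, 4 and 8 reads in edited hearts 1, 2 and 3, against 1, 5 and 2 reads in controls 1, 2 and 3. These counts are at most 8 per library and overlap between groups, against at least 308 for Art1. With the Chrna10 reads added to those of Art1, the log2 change was -1.27. So few added reads could hardly move it. Any reads of the shared stretch that were counted for neither gene are not in this sum, so their effect was not tested. None of the exon bases of Art3 were shared with Cxcl10 or Cxcl11, the chemokine genes that lie inside its span on the other strand.

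Art3 was the most abundant member and was moderately lower in edited hearts. It stood at 112, 107 and 112 CPM in edited hearts 1, 2 and 3, against 126, 153 and 147 CPM in controls 1, 2 and 3. The groups did not overlap, and control 1 was the control nearest to the edited hearts. The mean was 110 ± 2.92 CPM in edited hearts and 142 ± 14.4 CPM in controls (SD, n = 3 each), with a log2 change of -0.36 (SE 0.07), or 77.7% of the control level. The controls varied by 10.2%, well above the 1.96% of counting, and the edited hearts by 2.65%. The log2 change was -0.48 with controls 1 and 3 left out.

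Art4 went the other way. It stood at 14.5, 15.5 and 13.8 CPM in edited hearts 1, 2 and 3, against 9.45, 12.7 and 10.3 CPM in controls 1, 2 and 3. The groups did not overlap, but control 2, the control with atrial RNA, came close to the lowest edited heart. The mean was 14.6 ± 0.826 CPM in edited hearts and 10.8 ± 1.71 CPM in controls (SD, n = 3 each), with a log2 change of 0.43 (SE 0.11). This estimate was 0.19 with controls 1 and 3 left out, 0.56 without control 2 and 0.26 with Myl7 as a covariate, so its size moved with the libraries and the atrial level. The part of atrial tissue in it was not tested.

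Art5 was scarce and showed no difference that these counts could resolve. It had 70, 55 and 55 reads in edited hearts 1, 2 and 3, against 54, 59 and 58 reads in controls 1, 2 and 3. The groups overlapped, at 3.06 ± 0.064 CPM in edited hearts and 3.12 ± 0.102 CPM in controls (SD, n = 3 each). The log2 change was -0.03 (SE 0.16), with a range of -0.36 to 0.29 at ±2 SE, a span that takes in moderate changes in both directions at this depth. The spread between libraries was smaller than counting alone gives, 2.1% in edited hearts and 3.26% in controls where counting gives 12.9% and 13.2%.

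All 4 members passed the filter on low counts. The groups were apart in 3 of the 4, where 29.3% of all tested genes had groups apart. In 2 of these 3 the edited hearts lay below all controls and in 1 above. Across all tested genes 14.7% had non-overlapping groups with edited hearts lower and 14.6% with edited hearts higher. Nothing is read from the members' count, as this contrast chose them. The Art2 genes, T-cell surface enzymes of the same family in mice, were at or near 0. Art2a-ps had no read in any library and Art2b had at most 2.

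Per length, the order Art3, Art1, Art4, Art5 held in all 6 libraries, and no neighbouring levels in this order overlapped within a group. Art3 was at 107 ± 4.08 TPM in edited hearts and 129 ± 14.4 TPM in controls, and Art1 at 20.0 ± 1.43 TPM in edited hearts and 45.6 ± 2.34 TPM in controls. Art4 was at 14.1 ± 0.617 TPM in edited hearts and 9.72 ± 1.67 TPM in controls, and Art5 at 3.91 ± 0.108 TPM in edited hearts and 3.72 ± 0.121 TPM in controls (SD, n = 3 each). Art1 and Art4 were thus nearer each other in edited hearts than in controls. The length used for Art1 includes the exon bases shared with Chrna10. Any reads there that were counted for neither gene would make the TPM of Art1 too low, and this was not tested. The TPM of Art1 was 1.35, 1.34 and 1.59 times that of Art4 in edited hearts 1, 2 and 3, against 5.19, 4.15 and 4.93 times in controls 1, 2 and 3. Art1 made up 13.8 ± 0.721% of the summed TPM of the 4 genes in edited hearts and 24.4 ± 1.26% in controls, and Art3 73.9 ± 1.01% in edited hearts and 68.5 ± 1.37% in controls. The summed TPM of the 4 was 145 ± 4.42 in edited hearts and 188 ± 18.0 in controls (SD, n = 3 each). By TPM, Art1 ranked between 5293 and 5704 among all genes in edited hearts and between 2491 and 2705 in controls.

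In bulk tissue, fewer cells of a type and less RNA per cell cannot be told apart. Heart muscle markers were themselves lower in edited hearts. The summed CPM of 10 of them (among them Myh6, Myl2 and Tnnt2) was 70800 to 75300 in edited hearts, against 83500 to 86400 in controls, and 5 of the 10 passed the test, all lower, where 4.74% of all tested genes were called lower. Expressed per 1000000 of this sum, Art1 was at 218, 240 and 260 in edited hearts 1, 2 and 3, against 485, 531 and 491 in controls 1, 2 and 3, and the groups stayed apart. Art3 was at 1490, 1480 and 1590 in edited hearts 1, 2 and 3, against 1490, 1840 and 1700 in controls 1, 2 and 3, and on this scale its groups overlapped. Art4 was at 193, 214 and 196 in edited hearts 1, 2 and 3, against 112, 153 and 119 in controls 1, 2 and 3, still apart. Art5, whose groups overlapped in CPM, was at 39.7, 42.9 and 43.4 in edited hearts 1, 2 and 3, against 38.2, 37.2 and 35.0 in controls 1, 2 and 3. On this scale its edited hearts lay above every control. Its counts are small, and counting alone gives it a spread of 12.9% in edited hearts and 13.2% in controls. Because the marker sum was lower in edited hearts, a gene with unchanged CPM comes out higher there on this scale. The share of all genes with groups apart on this scale was not worked out.

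Other tissues that could carry these genes were looked for by their markers. Skeletal muscle, where Art1 is known, was near absent, as its fast myosin genes Myh1, Myh2 and Myh4 had at most 7 reads in a library. None of the 12 skeletal muscle markers was at 0 in all libraries. Their summed level was 43.7 to 121 CPM in edited hearts and 19.4 to 24.0 CPM in controls, most of it from Acta1, which heart muscle also expresses and which was at 92.2, 115 and 38.1 CPM in edited hearts, against 14.9, 15.9 and 12.1 CPM in controls. Other markers of the list lay the other way. In 5 scarce ones, Mylpf, Tnni2, Tnnc2, Atp2a1 and Pvalb, the edited hearts were below all controls, as in 14.7% of all tested genes. Of these, Tnnc2 and Pvalb had at most 4 reads in a library and were not tested. Tnni2 was at 1.95 ± 0.444 CPM in edited hearts and 3.06 ± 0.384 CPM in controls (SD, n = 3 each; log2 change -0.66, adjusted p = 0.0652 by edgeR). Of the 5 markers of the whole list that could be tested, 0 passed in edgeR (2 at unadjusted p under 0.05), where 9.66% of all tested genes passed. The part of skeletal muscle RNA in the level of Art1 was not tested. The summed level of 8 red cell markers, beside which Art4 is of interest, overlapped between groups, at 791 to 1230 CPM in edited hearts and 989 to 1280 CPM in controls. The 7 T cell markers in the table summed to 2.79 to 5.54 CPM in edited hearts and 2.11 to 4.28 CPM in controls. Mesothelial markers were higher in edited hearts, at 34.5 to 59.7 CPM against 28.4 to 29.5 CPM in controls, with 6 of 8 called higher and 1 lower (4.93% and 4.74% of all tested genes), and their part in the levels of the 4 genes was not tested. Endothelial, fibroblast and smooth muscle sums overlapped. The fibroblast sum was 8170 to 10200 CPM in edited hearts, against 6900, 8740 and 6950 CPM in controls 1, 2 and 3. Of its 8 markers 1, Lum, was called higher (adjusted p = 0.0182 by edgeR). The 8 macrophage markers summed to 99.1 to 109 CPM in edited hearts and 115 to 125 CPM in controls, and 0 of these 8 were called.

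The tested genes around Art1 had small estimated changes. Within 250 kb of Art1 the table lists 18 genes beside Art5, of which 10 had enough reads to be tested. None of the 10 passed in edgeR, 0 had an unadjusted p under 0.05, and DESeq2 also called 0, against 9.66% called among all tested genes. In so short a list 0 calls is near that share and is not read as a result. The log2 changes of the 10 genes lay between -0.14 and 0.15, with a median of 0.01. Nup98, a nuclear pore gene just beyond Chrna10, was at 48.3 ± 1.23 CPM in edited hearts and 50.0 ± 2.39 CPM in controls. Rnf121, a ubiquitin ligase gene on the Art5 side, was at 17.9 ± 0.262 CPM in edited hearts and 18.5 ± 0.438 CPM in controls, with a log2 range of -0.19 to 0.10 at ±2 SE. Pgap2, which remodels GPI anchors, was at 37.1 ± 2.28 CPM in edited hearts and 37.4 ± 2.64 CPM in controls (SD, n = 3 each). The other tested neighbours were Anapc15, Lamtor1, Lrrc51, Numa1, Il18bp, Xndc1 and Rhog. Among them Anapc15, a subunit of the anaphase-promoting complex, had the largest estimate, a log2 change of 0.15, with groups apart but an adjusted p of 0.330. Groups were apart in 1 tested neighbour with edited hearts higher, Anapc15, and in 1 with edited hearts lower, Rnf121. Across all tested genes 29.3% had groups apart.

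**Figure D2:**
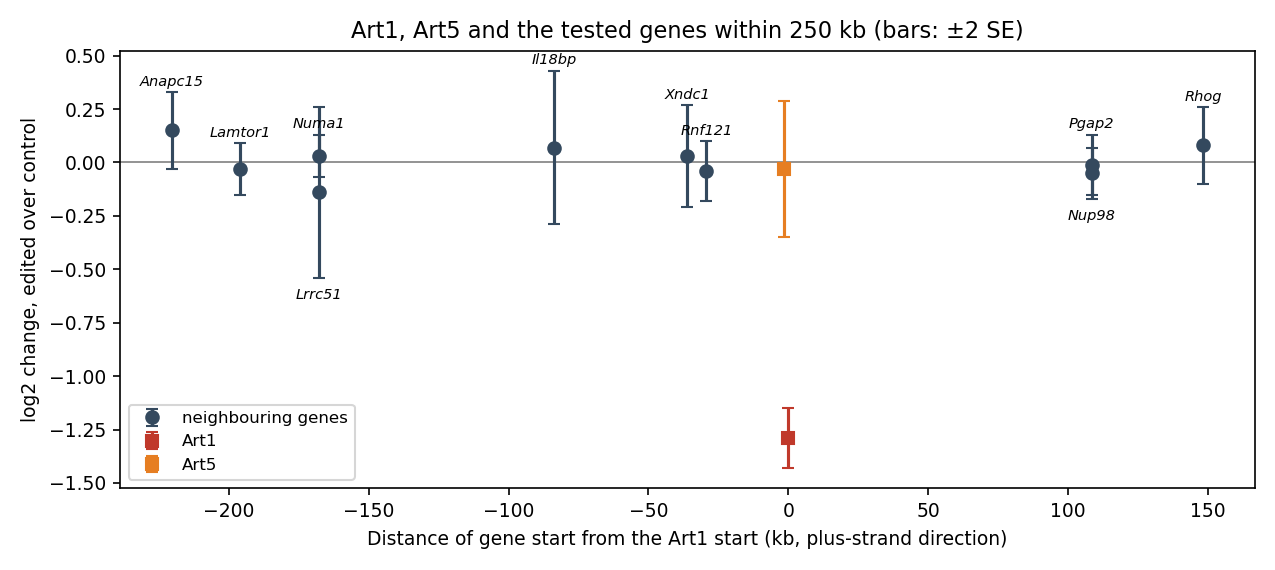
Log2 change, edited over control, of Art1, Art5 and the 10 tested genes within 250 kb, by distance of each gene's start from the Art1 start in kb (bars are ±2 SE). Art1 lies at -1.29 and Art5 at -0.03, and the neighbours lie between -0.14 and 0.15.

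The genes of ADP-ribose and NAD handling were followed in 6 lists, chosen with earlier results of these data known. Among other ADP-ribosyltransferases, mainly the intracellular PARP and tankyrase genes, 0 of 16 tested members passed in edgeR (3 at unadjusted p under 0.05; 0 in DESeq2), where 9.66% of all tested genes passed, with a median log2 change of 0.06 against 0.001 over all tested genes. The most abundant were Tnks2, at 121 ± 8.55 CPM in edited hearts and 125 ± 4.78 CPM in controls, Parp1, the main DNA damage transferase, at 86.1 ± 1.58 CPM in edited hearts and 93.0 ± 0.363 CPM in controls, and Tnks, at 37.0 ± 6.82 CPM in edited hearts and 34.9 ± 4.24 CPM in controls (SD, n = 3 each). Without edited 2, 1 member was called higher, Parp9 (adjusted p = 0.0400; 0.0852 with all libraries and 0.0297 to 0.677 over the alternatives), a gene named after its values were seen.

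Of 16 enzymes and proteins that remove or bind ADP-ribose, 2 rose and 1 fell, where 4.93% of all tested genes were called higher and 4.74% lower. The hydrolase that frees arginine from ADP-ribose, Adprh, and so acts against Art1, was at 52.8 ± 2.50 CPM in edited hearts and 52.0 ± 3.52 CPM in controls (adjusted p = 0.876), with a range of its level at ±2 SE up to 111% of control. Its heart muscle relative Adprhl1 was the most abundant of the list, at 376 ± 23.4 CPM in edited hearts and 388 ± 5.63 CPM in controls (SD, n = 3 each; adjusted p = 0.687). Macrod1, a mitochondrial hydrolase of ADP-ribose, fell, with 93.8, 107 and 93.4 CPM in edited hearts 1, 2 and 3, against 117, 113 and 126 CPM in controls 1, 2 and 3 (log2 -0.28, adjusted p = 0.0164). Enpp1, a surface enzyme that splits nucleotides, rose, with 12.2, 11.8 and 15.0 CPM in edited hearts 1, 2 and 3, against 10.2, 10.4 and 8.09 CPM in controls 1, 2 and 3 (log2 0.44, adjusted p = 0.0386). H2afy2, a histone with an ADP-ribose binding macrodomain, rose, with 20.1, 19.7 and 20.3 CPM in edited hearts 1, 2 and 3, against 17.6, 17.0 and 15.5 CPM in controls 1, 2 and 3 (log2 0.26, adjusted p = 0.0463). With single libraries left out the log2 changes stayed near these sizes, at -0.35 to -0.23 for Macrod1, 0.32 to 0.50 for Enpp1 and 0.21 to 0.30 for H2afy2, while calls were lost. Macrod1 lost its call without edited 3, control 1 or control 3 (adjusted p 0.0909, 0.057 and 0.128); the alternatives together gave 0.000261 to 0.476. Enpp1 lost it without edited 3, control 1, control 2 or control 3 (0.172, 0.0786, 0.0501 and 0.205; range 0.00164 to 0.627). H2afy2 lost it whichever of the 6 libraries was left out (0.0816, 0.0511 and 0.145 without edited 1, 2 and 3, and 0.0701, 0.0868 and 0.232 without controls 1, 2 and 3; range 0.0160 to 0.533). The list's calls were 0 without edited 3, control 1 or control 3 and 1 without control 2.

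NAD, the substrate, is made mainly from recycled nicotinamide in heart. Of 15 tested genes of its supply, 2 fell and 0 rose, where 4.74% of all tested genes were called lower and 4.93% higher, and a count this small is not read as a result on the list. Nampt, which starts the recycling, was at 58.0, 50.4 and 58.6 CPM in edited hearts 1, 2 and 3, against 66.0, 66.0 and 65.3 CPM in controls 1, 2 and 3 (log2 -0.24, adjusted p = 0.0331). Nmnat1, which completes NAD in the nucleus, was at 11.4, 10.6 and 11.3 CPM in edited hearts 1, 2 and 3, against 12.9, 14.7 and 14.4 CPM in controls 1, 2 and 3 (log2 -0.34, adjusted p = 0.0320). Both genes had groups that did not overlap, with changes far smaller than that of Art1. Of the 15 tested supply genes, 4 had groups apart with edited hearts lower and 1 with edited hearts higher. Across all tested genes these shares were 14.7% and 14.6%. The call of Nampt was lost without edited 2, edited 3, control 1, control 2 or control 3 (adjusted p 0.0507, 0.0523, 0.111, 0.0744 and 0.132; range 0.00694 to 0.425). That of Nmnat1 was lost without edited 2, edited 3, control 2 or control 3 (0.0619, 0.0815, 0.0937 and 0.140; range 0.0176 to 0.251), and the list then had 0 calls in each of these 4 settings. Their log2 changes stayed at -0.28 to -0.17 for Nampt and -0.39 to -0.30 for Nmnat1 with single libraries left out. The transhydrogenase Nnt was at 706, 671 and 686 CPM in edited hearts 1, 2 and 3, against 692, 511 and 521 CPM in controls 1, 2 and 3. Control 1 lay among the edited hearts, and without it Nnt was called higher (adjusted p = 0.00352, against 0.228 with all libraries; range up to 0.626). Slc25a51, the mitochondrial NAD carrier, was at 111 ± 3.74 CPM in edited hearts and 114 ± 2.10 CPM in controls (SD, n = 3 each). Among 9 tested consumers of NAD and nicotinamide (the sirtuins, Cd38 and Nnmt), 0 passed in edgeR (1 at unadjusted p under 0.05; 0 in DESeq2), against the same 9.66% over all tested genes, with a median of -0.05. Sirt2 was the most abundant, at 68.7 ± 2.01 CPM in edited hearts and 71.0 ± 2.07 CPM in controls.

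Among 6 genes for proteins reported as ART1 targets, with the integrin partner of 1, 3 fell and 0 rose, where 4.74% of all tested genes were called lower and 4.93% higher, and the median log2 change was -0.20. This list too was chosen with earlier results of these data known, so its count is not read as a result on the list. Itga7, the laminin-binding integrin chain of muscle, was at 170, 193 and 162 CPM in edited hearts 1, 2 and 3, against 214, 219 and 224 CPM in controls 1, 2 and 3 (log2 -0.32, adjusted p = 0.00682). Trim72, which seals injured muscle membranes, was at 143, 145 and 140 CPM in edited hearts 1, 2 and 3, against 176, 155 and 169 CPM in controls 1, 2 and 3 (log2 -0.22, adjusted p = 0.0236). Hspa5, a chaperone of the endoplasmic reticulum, was at 410, 413 and 414 CPM in edited hearts 1, 2 and 3, against 486, 511 and 503 CPM in controls 1, 2 and 3 (log2 -0.28, adjusted p = 0.00386). The edited hearts lay below every control in 4 of the 6 listed genes, these 3 and Itgb1, as in 14.7% of all tested genes. Des, the muscle intermediate filament, was at 1030 ± 89.8 CPM in edited hearts and 1120 ± 44.8 CPM in controls, and Itgb1, the partner of Itga7, at 645 ± 36.0 CPM in edited hearts and 686 ± 2.54 CPM in controls (SD, n = 3 each), neither past the test. Itga7, Trim72 and Des are muscle genes, and the heart muscle markers were lower in the same hearts. The part of muscle RNA in the levels of the listed genes was not tested. Itga7 lost its call without control 3 (adjusted p 0.0621; range 1.37e-05 to 0.262), and Trim72 without edited 3, control 1 or control 3 (0.116, 0.115 and 0.132; range 0.00601 to 0.611), and also without scaling beyond library totals (0.102). Hspa5 kept its call without each single library and lost it with Myl7 as a covariate (0.0708) and with controls 1 and 3 left out (0.119; range 1.02e-07 to 0.119). The list had 1 call without control 3 and 5 without edited 2, when Des (0.0293; 0.277 with all libraries) and Pdgfb (0.0253; 0.103 with all libraries, named after its values were seen) were added.

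The GPI anchor is attached to Art1, Art3 and Art4 by a chain of enzymes, and 0 of 28 genes of that chain passed in edgeR, with 0 at unadjusted p under 0.05 and 0 in DESeq2, where 9.66% of all tested genes passed. Their median log2 change was 0.01. The most abundant were Pigq, at 86.1 ± 3.23 CPM in edited hearts and 82.2 ± 3.41 CPM in controls, Pigt, at 71.8 ± 4.19 CPM in edited hearts and 65.7 ± 2.96 CPM in controls, and Pigk, at 42.2 ± 0.549 CPM in edited hearts and 43.3 ± 1.74 CPM in controls (SD, n = 3 each).

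**Figure D3:**
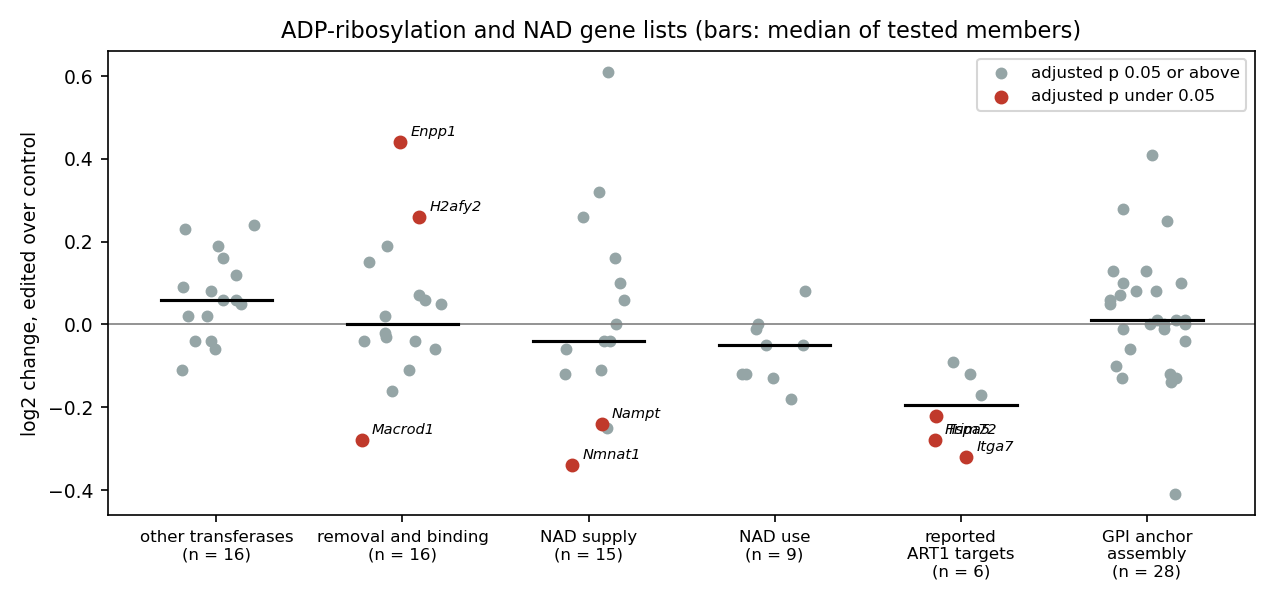
Log2 change, edited over control, of the tested genes of 6 lists of ADP-ribose, NAD and GPI anchor genes (points; horizontal bars are list medians; red points had an adjusted p under 0.05 in edgeR). Called genes are 3 in the removal and binding list, 2 in NAD supply and 3 among reported ART1 targets, and none in the other 3 lists.

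The genes whose profile over the 6 libraries was most like that of Art1 were found by the root mean square difference between log2 CPM profiles, each centred on its own mean, over 13938 genes. This is a description, and the measure favours genes with a difference of similar size. The nearest named genes were Cfap61, a cilium gene (distance 0.136), Klhl33 (0.137), Pnpla3, a lipase of lipid droplets (0.144), and Igsf1 (0.166). They were followed by Tmem100 (0.176), Scn4a, the skeletal muscle sodium channel (0.206), Prr29 (0.211) and Pla2g5, a secreted phospholipase (0.221). Cfap61 was scarce, at 0.507 ± 0.0531 CPM in edited hearts and 1.14 ± 0.155 CPM in controls. Klhl33 was at 6.29 ± 0.580 CPM in edited hearts and 15.1 ± 2.37 CPM in controls, and Scn4a at 5.81 ± 0.261 CPM in edited hearts and 11.6 ± 2.06 CPM in controls (SD, n = 3 each). All 8 were lower in edited hearts, by log2 changes between -1.28 and -0.97. Camk2d ranked 82 by this measure. Among the relatives of Art1, Art3 ranked 378, Art5 5340 and Art4 12806.

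**Figure D4:**
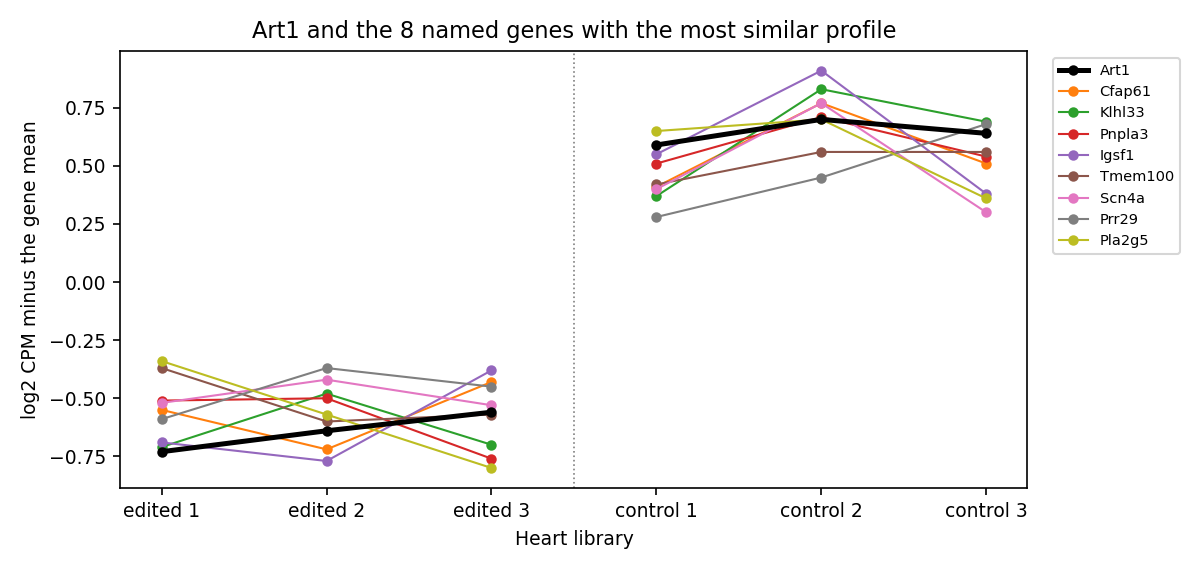
Centred log2 CPM of Art1 (thick black line) and of the 8 named genes nearest to it, in the 3 edited and 3 control heart libraries. Art1 runs between -0.73 and -0.56 in edited hearts and between 0.59 and 0.70 in controls, and all 8 others are on the same side of 0 in every library.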

How the data were processed

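RNA of 6 mouse heart libraries was sequenced, 3 edited and 3 control. The authors deposited raw read counts per gene. The tools, per the submitters' processing notes, were cutadapt, FastQC, STAR and featureCounts, on build mm10. Any version or setting, strand and multiple matches included, was not given in the sources used here. Gene lengths, in bases, are also the deposited ones. Each library has 2 count columns named after read mates, which differed in 0 genes, so the first was used. Totals were 17062412 to 23097998 counts. Replicates of a group differed beyond sampling noise (chi-square per degree of freedom 3.95 to 14.41 over genes with at least 20 counts).

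From the counts, filterByExpr left 14879 genes. TMM scaling and edgeR's quasi-likelihood test (edgeR 4.0.16, robust, R 4.3.3) compared edited with control, adjusted by Benjamini-Hochberg over all tested genes, with a threshold of 0.05. Log2 changes are edited over control, unshrunken, with SE, the size of the change over the root of F. TPM used the deposited lengths. Profiles used log2 CPM with a prior count of 0.5 and genes with at least 1 CPM in a group. The members and the gene lists were chosen with earlier results of these data known. Named are the 4 genes, Chrna10, Camk2d, list genes past the threshold (at most 8 a list) and the 3 most abundant of each list, tested neighbours within 250 kb, and the 8 genes nearest in profile (predicted genes, pseudogenes and bare identifiers left out). A gene named otherwise is marked or is a marker. Promoters came from RefSeq, in which all 4 genes matched. Alternatives were DESeq2 size factors, upper-quartile or no scaling, other filters, DESeq2's Wald test (1.42.0), the replicate number as a block, Myl7 as a covariate, both atrium-poor controls left out, each library left out, and Art1 and Chrna10 summed.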

Additional observations from a re-analysis of the deposited data

How the results depend on the processing

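The change of Art1 kept its sign in all 16 alternatives, between -1.35 and -1.22, the last without scaling beyond library totals. Among these, the sum with Chrna10 could hardly move it, as it adds few reads. Art3 lay between -0.48, with controls 1 and 3 left out, and -0.29, and Art4 between 0.19, with controls 1 and 3 left out, and 0.56, with 0.26 with Myl7 as a covariate. Art5 lay between -0.05 and 0.04, the last without scaling. Without single libraries Art1 ran from -1.34 to -1.25, Art3 from -0.44 to -0.31, Art4 from 0.35 to 0.56, Art5 from -0.05 to -0.01 and Camk2d from -0.74 to -0.57. Camk2d lost its call with controls 1 and 3 left out (-0.62, adjusted p 0.0964, in a range of 3.13e-19 to 0.0964), where a single control remains. Calls over all genes numbered 1438 (733 higher, 705 lower), and 2239 with no filter, 128 with Myl7 as a covariate, 82 with controls 1 and 3 left out and 386 to 1661 without single libraries. The split was 849 higher and 531 lower with upper-quartile scaling, and 1316 and 356 without scaling, where the median of all genes moved to 0.07. The order of the 4 genes held in 6 of 6 libraries by CPM too.

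Calls among other transferases were 2 without scaling (Parp9 and Zc3hav1, higher) and 0 to 1 without single libraries. Among removal and binding genes they were 1 with DESeq2's test, 0 with Myl7 as a covariate, 0 with controls 1 and 3 left out and 0 to 2 without single libraries. For NAD supply they were 1 with upper-quartile scaling, 1 without scaling (Nmrk2, higher, in place of the 2 lower), 1 with DESeq2's test, 0 with the covariate, 0 with controls 1 and 3 left out and 0 to 2 without single libraries. For reported targets calls were 0 with the covariate, 0 with controls 1 and 3 left out and 1 to 5 without single libraries. All 8 called genes of these 3 lists lost their calls with the covariate and with controls 1 and 3 left out. Neighbours, NAD use and GPI anchor genes had 0 calls in all 15 alternatives. The cause of these shifts was not tested.

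With the replicate block, calls over all genes were 1077, removal and binding had 1 call, NAD supply 0 and reported targets 2, as Trim72 (adjusted p 0.0578), Enpp1, H2afy2, Nampt and Nmnat1 lost their calls. Same-numbered libraries did not deviate together (Pearson r across genes 0.0256, -0.0923 and -0.0732), and libraries with different numbers gave -0.0523 to 0.109. Genes are not independent replicates, and with so few libraries such values cannot show whether the numbers pair the hearts. The labels state no pairing. Depth limits Art5 and Chrna10 most, with at most 70 and 8 reads a library.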
